A study of Mus musculus with 12 samples.

Results

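Cytosolic DNA sensing and nucleic acid editing were followed here through 9 genes. With earlier results of these data known, they were chosen by name for what their proteins do. They are Cgas, Sting1, Trex1, Zbp1, Samhd1, Adar, Rnaseh2a, Rnaseh2b and Rnaseh2c. Of these, 8 were found under their names among the 16699 genes that the unstimulated and the LPS count tables share, and Trex1 was not analysed here. The libraries come from J774A.1, a mouse macrophage line, and the study asked how loss of ACAT1, a mitochondrial acetyl-CoA acetyltransferase, alters macrophage gene expression. There were 4 groups of 3 libraries each: WT cells without treatment, ACAT1 KO cells without treatment, WT cells after 2 hours with 100 ng/ml lipopolysaccharide (LPS), and ACAT1 KO cells after the same exposure. All lines of both genotypes had received a Cas9 and GFP vector, which carried a guide RNA against the fourth exon of Acat1 for the ACAT1 KO lines and no guide RNA for the WT lines. GFP-positive cells were sorted a few to a well and grown out as clonal populations, so every difference between genotypes is one between 3 WT and 3 ACAT1 KO lines. Each line gave 1 library in a state, so the p-values measure the spread between lines and that between libraries together.

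DNA in the cytosol is bound by cGAS, which makes the cyclic dinucleotide cGAMP, and cGAMP binds STING, the adaptor from which TBK1 and IRF3 switch on interferon-β. Cells limit the sensing of their own DNA and RNA by removing or altering nucleic acids. SAMHD1 breaks down deoxynucleotides, and RNase H2 takes ribonucleotides out of DNA. ADAR1 acts on RNA instead, turning adenosine into inosine in double-stranded RNA so that it is not read as viral. ZBP1 senses Z-form nucleic acid and can trigger necroptosis, and inherited loss of several of these enzymes causes the interferon disorder Aicardi-Goutières syndrome.

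Libraries held 56948593 to 167280149 counts, and levels are given as CPM, which are read counts scaled to the size of each library, here with TMM factors over the 12 libraries. Acat1, the edited gene, lay between 80.8 and 108.4 CPM in unstimulated WT libraries against 25.5 to 28.9 CPM in ACAT1 KO ones, and between 65.0 and 95.4 against 18.5 to 19.9 CPM after LPS. All 8 macrophage markers checked were present, with a summed level of 8327 to 11136 CPM, while 8 of 28 markers of 6 other cell types were listed in both tables, the highest of them Cdh1 at 37.9 to 65.9 CPM and the others at 12.9 CPM or less. In 3 unstimulated libraries, WT replicates 1 and 2 and ACAT1 KO replicate 2, noncoding genes lying wholly in exons of the other strand took 0.0139% to 0.0208% of counts, against 0.00137% to 0.00177% in the other 9. The same 3 libraries had the lowest totals. Unstimulated and LPS libraries were deposited in separate tables, so the treatment and anything else that set the tables apart cannot be told apart. In bulk RNA, fewer expressing cells and less RNA per cell also cannot be told apart.

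The 8 genes lay close together in level in unstimulated WT cells, apart from Rnaseh2b and Zbp1. Per kilobase of annotated exon the level was 18.0 ± 1.77 CPM for Sting1, 17.7 ± 1.52 for Rnaseh2c, 16.1 ± 1.83 for Adar, 15.8 ± 1.24 for Rnaseh2a, 15.3 ± 1.43 for Samhd1 and 13.4 ± 1.85 for Cgas (SD, n = 3 each). Neighbours in this order overlapped in range. Rnaseh2b followed at 3.18 ± 0.243 CPM per kilobase and Zbp1 was lowest at 0.785 ± 0.600 (SD, n = 3 each), with no overlap between them or with the other 6. After LPS the order in WT cells became Adar at 67.3 ± 8.66, Samhd1 at 38.6 ± 10.4, Cgas at 34.2 ± 3.91, Sting1 at 15.4 ± 0.810, Rnaseh2c at 14.3 ± 1.17, Rnaseh2a at 12.4 ± 0.523, Zbp1 at 6.94 ± 4.94 and Rnaseh2b at 2.93 ± 0.116 CPM per kilobase (SD, n = 3 each). Samhd1 and Cgas overlapped there, as did Sting1 and Rnaseh2c, and Zbp1 overlapped with both of its neighbours.

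**Figure D1:**
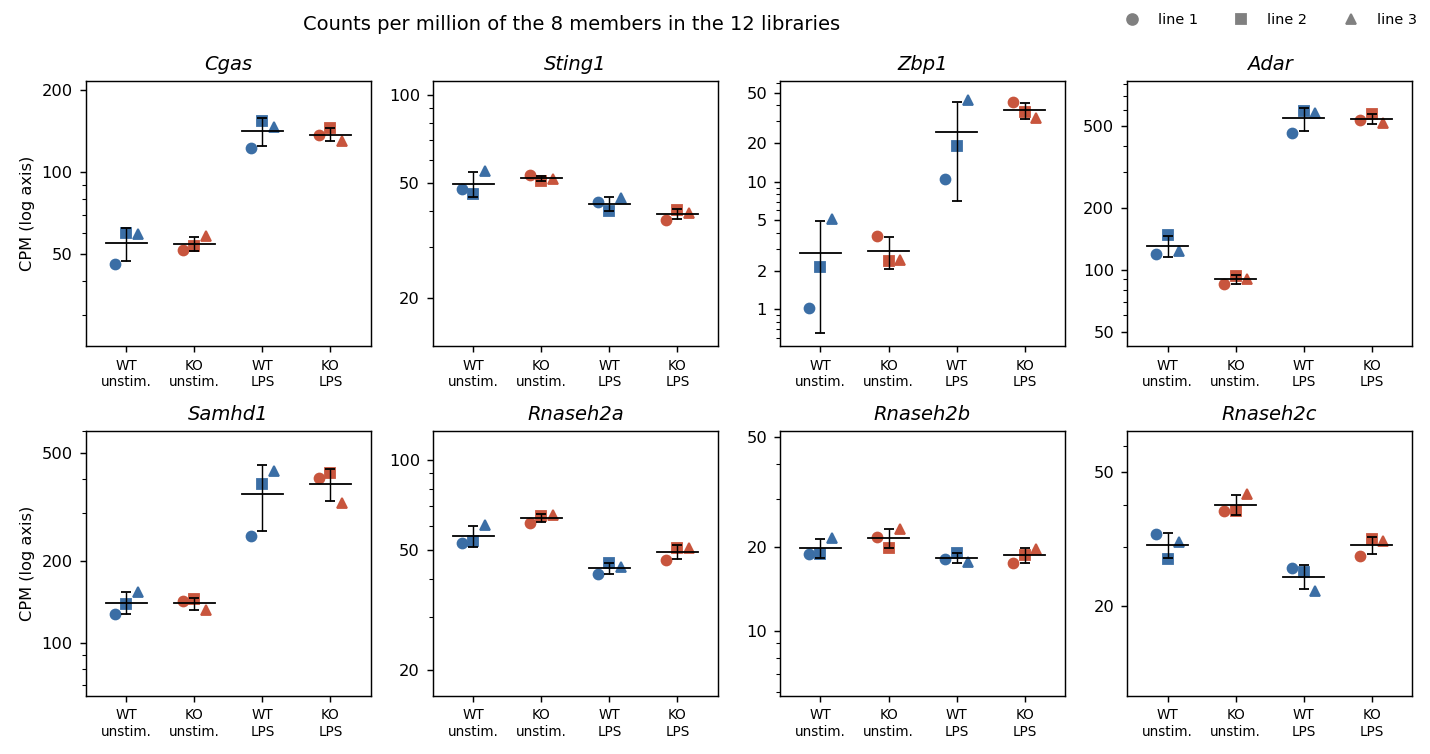
Level of each gene in every library, as CPM on a log axis that spans a different range in each panel, by group, with 1 point for each line (blue WT, red ACAT1 KO), a bar for the mean and an error bar for the SD of 3 libraries. Cgas, Zbp1, Adar and Samhd1 lie higher in every LPS library than in any unstimulated one, and Adar lies lower in the 3 unstimulated ACAT1 KO libraries (85.1 to 93.6 CPM) than in the 3 unstimulated WT libraries (119.9 to 147.5 CPM).

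Adar encodes ADAR1, which edits adenosine to inosine in double-stranded RNA, and lies on the plus strand of chromosome 3 of GRCm38 from 89715022 to 89753446. It was the only one of the 8 genes that passed the test between genotypes without treatment. Its level was 119.9, 147.5 and 124.1 CPM in the unstimulated WT libraries and 85.1, 93.6 and 90.4 CPM in the unstimulated ACAT1 KO libraries. The ranges did not overlap, with ACAT1 KO cells the lower, and the share of all genes that separate in this way was not counted. The log2 fold change was -0.53 (standard error 0.0920, 95% interval -0.75 to -0.31), a 1.45-fold lower level. In the quasi-likelihood test of edgeR, with p-values adjusted over all genes by Benjamini-Hochberg, this gave an adjusted p = 0.0456. At that threshold 1 of the 8 genes was called, where 1.91% of the 16440 genes tested were. The call was lost in each of the 6 fits that left out a library, with adjusted p from 0.0504 to 0.171 and log2 fold changes from -0.60 to -0.43. It thus held only with all 6 libraries. Over all genes, the fits that left out a library called 7 to 522, against 314 with all 6. Among the 3 libraries with more counts on antisense genes, 1 ACAT1 KO and 2 WT, the difference in mean log2 CPM was -0.51, and among the other 3, 2 ACAT1 KO and 1 WT, it was -0.50. With that split as a term in the fit Adar had a log2 fold change of -0.50 (edgeR, adjusted p = 0.0296), and without the 3 libraries with more antisense counts it had one of -0.51 that did not pass (edgeR, adjusted p = 0.116). In the exact permutation test, two-sided, 3 lines against 3 gave p = 0.100, the smallest that this design allows.

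After LPS the genotypes overlapped in Adar. It was 465.4, 593.4 and 579.6 CPM in WT and 537.1, 574.8 and 516.0 CPM in ACAT1 KO cells, with the ACAT1 KO libraries inside the WT range. The log2 fold change between genotypes was 0.012 (95% interval -0.21 to 0.23). LPS raised Adar in both genotypes, by a log2 fold change of 2.07 in WT (standard error 0.106, adjusted p = 1.68e-08, edgeR) and 2.60 in ACAT1 KO cells (standard error 0.108, adjusted p = 2.74e-09, edgeR). By line, taking the replicate number to mark the line, the rise was 3.88-fold, 4.02-fold and 4.67-fold in WT and 6.31-fold, 6.14-fold and 5.71-fold in ACAT1 KO cells, with no overlap. The difference between these responses, which uses the same libraries as the unstimulated comparison, was a log2 value of 0.53 (standard error 0.144, adjusted p = 0.191, edgeR), not past the threshold. With the line as a block it was 0.53 (standard error 0.0891, adjusted p = 0.0276, edgeR). None of the 8 genes was called for this difference without the block, where 0.187% of genes were. At an unadjusted p under 0.05 it was 1 of the 8, where 8.92% of all genes passed, so that this count is near the share of all genes. Adar alone was called with the block, where 1.74% were. DESeq2 without the block also called it, with a log2 value of 0.54 (adjusted p = 0.0249).

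On the other strand, 1365 of the 8118 exon bases of Adar are shared with Chrnb2, and the sources used here do not state whether the counting used strand. Chrnb2 was listed at 19.7 ± 2.91 CPM in unstimulated WT and 13.4 ± 1.99 CPM in unstimulated ACAT1 KO cells (SD, n = 3 each), with a log2 fold change of -0.55 that did not pass (edgeR, adjusted p = 0.117), and at 9.95 ± 1.14 and 9.23 ± 1.13 CPM after LPS. Its part in the Adar values was not tested. No library held more than 21.7 CPM of Chrnb2, and none held less than 85.1 CPM of Adar.

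The 3 genes whose log2 CPM followed that of Adar most closely over the 12 libraries, among 11961 genes with a mean of at least 1 CPM, were Parp12 (Pearson's r = 0.999), Virma (r = 0.999) and Eif2ak2 (r = 0.998). Parp12 is an interferon-induced ADP-ribosyltransferase, Virma a subunit of the RNA methyltransferase complex and Eif2ak2 the kinase PKR, which binds double-stranded RNA. Most of the spread behind these values is the LPS response that all 12 points share, so they are given as a description. In unstimulated cells Parp12 had a log2 fold change between genotypes of -0.49, Virma of -0.13 and Eif2ak2 of -0.43, and after LPS of 0.019, 0.015 and 0.14.

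Promoter windows for 5 of the 8 genes were read from RefSeq on GRCm38.p6, each from 250 bases before to 50 bases after a start site, 7 windows in all since Adar has 3. They were searched on both strands for GAAANNGAA, the core of the interferon-stimulated response element, for TTCNNNGAA, the STAT-binding element, and for the kB motif. GAAANNGAA occurs in 8.55%, TTCNNNGAA in 8.29% and the kB motif in 4.50% of all 32817 promoter windows. Of the 7 windows only that of the third Adar start, at 89730718, held GAAANNGAA, at 2 places, and none held the kB motif. That start lies 15696 bases downstream of the first, whose window held none of the 3 motifs, and counts per gene cannot tell the starts apart. The stretches of 30 bases that hold the matches are shown, 5′ to 3′ on the gene's own strand, because the first 3 belong to genes that LPS raised and the last to one that LPS lowered. Capitals mark the matches.

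Adar, after the third start, chr3:89730735-89730764, plus strand: gccttTTCAAGGAAacGAAAGTGAActctg
Adar, before the third start, chr3:89730468-89730497, plus strand: gGAAAAGGAActtcctcacagggcggagag
Samhd1, before its start, chr2:157135312-157135341, minus strand: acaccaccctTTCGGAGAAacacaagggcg
Rnaseh2a, after its start, chr8:84966041-84966070, minus strand: cactgcagttTTCGCGGAAaacgcgcgctg

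The first Adar stretch holds both letter patterns within the 50 bases after the start, TTCNNNGAA at 22 to 30 and GAAANNGAA at 33 to 41 bases from it. The Samhd1 match lies at -235 to -227 from the start, where negative positions are before it, and that of Rnaseh2a at 16 to 24. The windows of Cgas and Rnaseh2c held none of the 3 motifs. A match of letters does not show binding, and nothing follows from its absence.

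The sensors come next. Cgas, the DNA sensor itself (chromosome 9, 78430526 to 78443237, minus strand), was 46.2, 59.7 and 59.3 CPM in WT and 52.1, 53.6 and 58.5 CPM in ACAT1 KO cells without treatment, and 122.99, 153.9 and 146.4 against 137.3, 144.8 and 129.8 CPM after LPS. The genotypes overlapped in both states, while every LPS library lay above every unstimulated one. The genotype log2 fold change was -2.7e-04 without treatment (95% interval -0.26 to 0.26) and -0.019 after LPS (95% interval -0.22 to 0.18). LPS raised Cgas by 1.36 in WT (standard error 0.108, adjusted p = 5.64e-07, edgeR) and by 1.33 in ACAT1 KO cells (standard error 0.108, adjusted p = 5.75e-07, edgeR), both on the log2 scale.

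Sting1, the adaptor downstream of cGAS (chromosome 18, 35733679 to 35740554, minus strand), was lowered by LPS in both genotypes. It was 47.6, 45.7 and 54.9 CPM in WT and 53.0, 50.7 and 51.3 CPM in ACAT1 KO cells without treatment, and 42.8, 39.9 and 44.2 against 37.3, 40.3 and 39.3 CPM after LPS. The genotypes overlapped in both states, and within each genotype the LPS libraries lay below the unstimulated ones. The LPS log2 fold change was -0.22 in WT (standard error 0.0718, adjusted p = 0.0184, edgeR) and -0.41 in ACAT1 KO cells (standard error 0.0718, adjusted p = 3.69e-04, edgeR). The call in WT was lost without unstimulated WT replicate 3 (edgeR, adjusted p = 0.0783) and without LPS WT replicate 2 (edgeR, adjusted p = 0.0737). By line the LPS libraries held 0.899, 0.873 and 0.806 of the unstimulated level in WT and 0.703, 0.794 and 0.766 in ACAT1 KO cells, a difference between genotypes of -0.18 on the log2 scale (95% interval -0.41 to 0.038, adjusted p = 0.665, edgeR) that did not pass.

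Zbp1, the Z-nucleic acid sensor (chromosome 2, 173206612 to 173218923, minus strand), was the lowest of the 8 genes without treatment and had the largest LPS response of the 8 on the log2 scale. It was 1.03, 2.15 and 5.13 CPM in WT and 3.79, 2.39 and 2.45 CPM in ACAT1 KO cells without treatment. After LPS it was 10.5, 18.9 and 44.0 CPM in WT and 42.1, 35.4 and 31.6 CPM in ACAT1 KO cells. The genotypes overlapped in both states, and the WT lines spanned a 4.97-fold range without treatment and a 4.18-fold range after LPS. WT line 3 was the highest WT library and WT line 1 the lowest in both states. The LPS log2 fold change was 3.10 in WT (standard error 0.569, adjusted p = 5.40e-04, edgeR) and 3.65 in ACAT1 KO cells (standard error 0.576, adjusted p = 1.58e-04, edgeR). By line the rise was 10.2-fold, 8.81-fold and 8.58-fold in WT and 11.1-fold, 14.8-fold and 12.9-fold in ACAT1 KO cells. That difference was 0.55 on the log2 scale (adjusted p = 0.933, edgeR) and 0.50 with the line block (standard error 0.128, adjusted p = 0.105, edgeR), not past the threshold.

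The genotype comparison of Zbp1 rested on single WT lines. It was 0.059 on the log2 scale without treatment (95% interval -1.23 to 1.35), 0.67 among the libraries with more antisense counts and -0.75 among the others. After LPS it was 0.58 (95% interval -0.41 to 1.57, adjusted p = 0.398, edgeR). Without WT replicate 3 it was 1.33 and called (adjusted p = 0.0184, edgeR). Without WT replicate 1 it was 0.22 and not called (adjusted p = 0.664, edgeR). It was called in 1 of the 6 fits that left out a library. Zbp1 and Samhd1 both lie on chromosome 2 beyond 90 Mb, where the median genotype log2 fold change was 0.29 over 709 genes without treatment and 0.28 over 712 genes after LPS, against -0.0040 and -0.014 for all other genes. The part of that shift in their values was not tested.

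**Figure D2:**
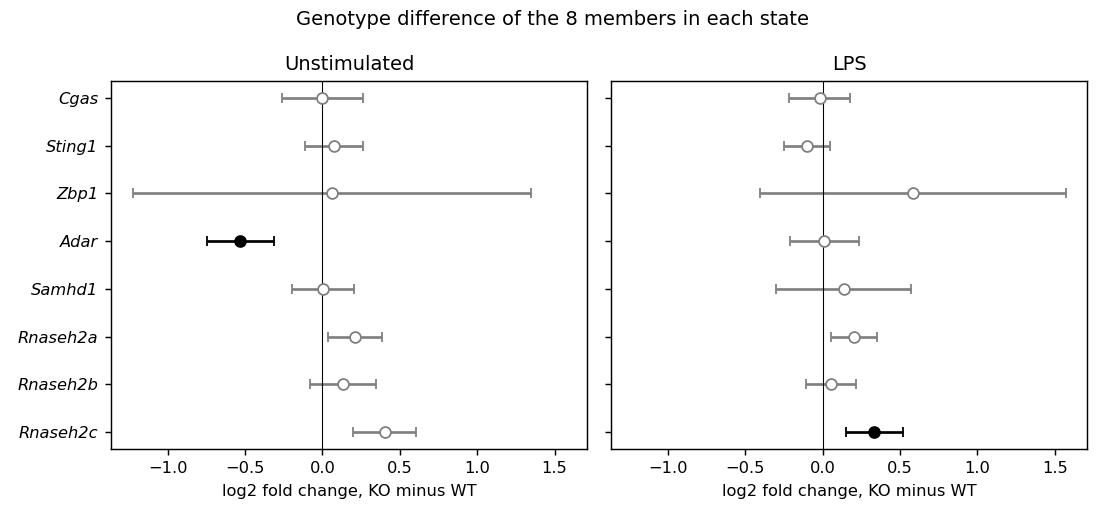
Log2 fold change of ACAT1 KO against WT cells for each gene, without treatment (left) and after LPS (right), with its 95% interval from edgeR's fit; filled points passed an adjusted p under 0.05. Adar passed at -0.53 on the left and Rnaseh2c at 0.33 on the right, and the interval for Zbp1 is the widest in both panels.

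Among the enzymes that limit the nucleic acids themselves, Samhd1, the deoxynucleotide triphosphohydrolase (chromosome 2, 157097533 to 157135265, minus strand), was 127.9, 138.9 and 154.0 CPM in WT and 141.9, 145.3 and 131.7 CPM in ACAT1 KO cells without treatment. After LPS it was 246.5, 384.2 and 429.7 CPM in WT and 404.1, 419.8 and 326.0 CPM in ACAT1 KO cells. The genotypes overlapped in both states and the LPS libraries all lay above the unstimulated ones. LPS raised it by 1.33 in WT (standard error 0.172, adjusted p = 3.28e-05, edgeR) and by 1.46 in ACAT1 KO cells (standard error 0.172, adjusted p = 1.46e-05, edgeR) on the log2 scale. WT line 1 rose 1.93-fold, and the other 5 lines 2.47-fold to 2.89-fold.

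LPS WT replicate 1 was the lowest of the 6 LPS libraries for all 4 genes that LPS raised, Cgas, Zbp1, Adar and Samhd1. A list of 19 genes of the type I interferon pathway stood lowest there too, with a median of 1.84 for log2 CPM less each gene's mean over the 12 libraries, against 2.03 to 2.46 in the other 5. Without that library the WT response passed for the same 7 genes, at 1.45 for Cgas, 1.54 for Samhd1, 2.17 for Adar and 3.46 for Zbp1.

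RNase H2, a complex of the catalytic subunit A and the auxiliary subunits B and C, responded less to LPS than Adar and Samhd1 did. Rnaseh2c (chromosome 19, 5601873 to 5607019, plus strand) lay higher in every ACAT1 KO library than in any WT library of the same state, at 32.7, 27.6 and 31.0 CPM in WT against 38.4, 38.4 and 43.2 CPM in ACAT1 KO cells without treatment, and 26.0, 25.2 and 22.2 against 28.3, 31.6 and 31.1 CPM after LPS. After LPS the log2 fold change was 0.33 (standard error 0.0797, 95% interval 0.15 to 0.52, adjusted p = 0.0293, edgeR), a 1.26-fold higher level and the only call among the 8 genes there, where 15.1% of the 16483 genes tested were called, so that 1 of 8 is near the share of all genes. Without treatment it was 0.40 (standard error 0.0863, 95% interval 0.20 to 0.61, adjusted p = 0.0726, edgeR), which missed the threshold. DESeq2 (adjusted p = 0.00123) and the edgeR fit of all 12 libraries (adjusted p = 0.0187) called it. In all, DESeq2 called 1721 genes there and edgeR 314. In edgeR it was not called with upper-quartile scaling (adjusted p = 0.0697) or the replicate number as a block (adjusted p = 0.076). Nor was it with the term for the antisense split (edgeR, adjusted p = 0.0638) or with any 1 library left out (edgeR, adjusted p from 0.0917 to 0.224). The LPS call was lost without WT replicate 2, WT replicate 3, ACAT1 KO replicate 2 or ACAT1 KO replicate 3, with log2 fold changes from 0.28 to 0.38 over all 6 libraries left out.

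Rnaseh2a (chromosome 8, 84956610 to 84969767, minus strand) was 52.6, 53.5 and 60.6 CPM in WT and 61.6, 64.7 and 65.6 CPM in ACAT1 KO cells without treatment, and 41.6, 45.2 and 44.0 against 46.4, 51.0 and 50.8 CPM after LPS. Here too the genotypes did not overlap, but neither difference passed, at 0.21 (standard error 0.0730, adjusted p = 0.183, edgeR) and 0.20 (standard error 0.0641, adjusted p = 0.0714, edgeR). The share of all genes that separate as Rnaseh2c and Rnaseh2a do was not counted. Without treatment the difference was 0.29 among the libraries with more antisense counts and 0.069 among the others, and without the former it was 0.064 (edgeR, unadjusted p = 0.549). Rnaseh2b (chromosome 14, 62292589 to 62372992, plus strand) ranged from 17.6 to 23.3 CPM over the 12 libraries, with genotypes that overlapped in both states and log2 fold changes of 0.13 and 0.054. With a library left out these ranged from 0.078 to 0.20 and from 0.014 to 0.10. At an unadjusted p under 0.05, 3 of the 8 genes differed between genotypes without treatment, Adar, Rnaseh2c and Rnaseh2a, where 19.7% of all genes did, and 2 after LPS, Rnaseh2c and Rnaseh2a, where 31.3% did. Counts of 3 and 2 among only 8 genes are too few to be set apart from these shares. The median genotype difference of the 8 genes was 0.066 without treatment and 0.095 after LPS, beside 0.0035 and -0.0041 over all genes.

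LPS lowered Rnaseh2a, by a log2 fold change of -0.35 in WT (adjusted p = 7.49e-04, edgeR) and -0.37 in ACAT1 KO cells (adjusted p = 4.37e-04, edgeR), and Rnaseh2c, by -0.32 (adjusted p = 0.00776) and -0.40 (adjusted p = 0.00165). Rnaseh2b was lower after LPS in ACAT1 KO cells (log2 fold change -0.21, adjusted p = 0.0380, edgeR) and did not pass in WT cells (-0.12, adjusted p = 0.228). In edgeR the former call was lost without unstimulated ACAT1 KO replicate 1 or 3 or LPS ACAT1 KO replicate 1 or 2, and the latter value passed with upper-quartile scaling (-0.33, adjusted p = 0.00225) and without the 3 libraries with more antisense counts (-0.27, adjusted p = 0.0434). Of Rnaseh2c, 426 of 1715 exon bases are shared with Kat5 on the other strand, which was 25.2 ± 1.97 and 24.8 ± 0.229 CPM without treatment and 37.2 ± 3.45 and 32.9 ± 1.60 CPM after LPS in WT and ACAT1 KO cells (SD, n = 3 each), and whose genotype differences did not pass. Its part in the Rnaseh2c values was not tested. The genes closest to Rnaseh2c in log2 CPM over the 12 libraries were Mpnd (Pearson's r = 0.978), Immp1l (r = 0.972) and Galk1 (r = 0.965), again as a description.

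Over the 8 genes, LPS therefore called 7 in WT, 4 higher and 3 lower, where 57.4% of 16535 genes were called, and all 8 in ACAT1 KO cells, 4 higher and 4 lower, where 60.7% were. Upper-quartile scaling moved the median of all genes to -0.23 in WT and -0.17 in ACAT1 KO cells, from -0.018 and -0.026, and changed the genes called higher in WT from 4850 of 9488 to 3628 of 10309 and in ACAT1 KO cells from 4871 of 10037 to 3921 of 10481. The direction of all 8 genes stayed the same under it. Beside the shifted median of -0.23, Sting1, Rnaseh2a, Rnaseh2b and Rnaseh2c then stood at -0.43, -0.56, -0.33 and -0.53 in WT cells.

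**Figure D3:**
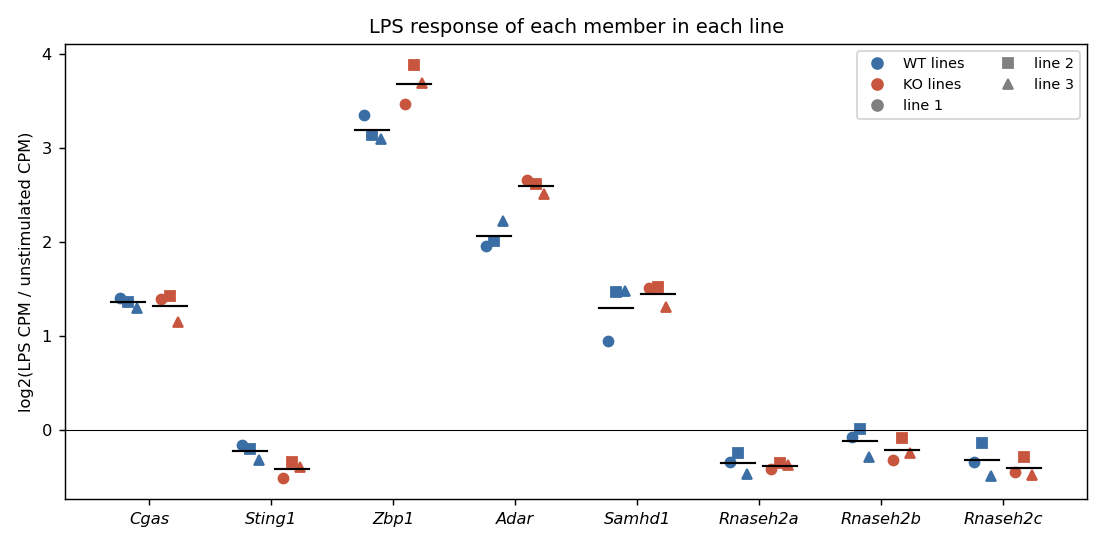
LPS response of each gene in each line, as the log2 ratio of LPS to unstimulated CPM, for WT (blue) and ACAT1 KO (red) lines, with a bar for the mean of 3 lines. Zbp1 shows the largest rise, the 3 ACAT1 KO lines stand above the 3 WT lines for Adar and Zbp1 and below them for Sting1, and the 3 RNase H2 subunits lie between -0.48 and 0.011 in every line. In edgeR 0 of the 8 genes were called for a difference in this response without the line block, and 1, Adar, with it. The share of all genes whose lines separate in this way was not counted.

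Genes that work with the 8 were counted as lists, which were chosen with earlier results of these data known. Calls within the lists were not followed with single libraries left out. Of 28 STING pathway partners 26 were tested without treatment. In ACAT1 KO cells 1 of them was called higher and 3 lower, where 1.91% of all genes were called in either direction. Their median log2 fold change was -0.017, beside 0.0035 for all genes. Without the 3 libraries with more antisense counts 0 were higher and 2 lower. The 4 called were Nlrx1, a mitochondrial inhibitor of STING (0.49, adjusted p = 0.0484, edgeR), and Usp18, an ISG15 protease (-1.76, adjusted p = 0.0215), Ifi204, a DNA-binding PYHIN protein (-1.22, adjusted p = 0.0320), and Tbk1, the kinase that STING recruits (-0.35, adjusted p = 0.0442). After LPS 3 of 27 were higher and 1 was lower, near the 15.1% of all genes called there. These were Nlrx1 (0.46, adjusted p = 0.0281), Ifnb1, which encodes interferon-β (1.27, adjusted p = 0.0312), and Rnf5, a ubiquitin ligase of STING (0.28, adjusted p = 0.0349), against Tbk1 (-0.41, adjusted p = 0.00628, all from edgeR). Tbk1 was 85.8, 82.4 and 89.6 CPM in unstimulated WT and 68.5, 64.5 and 68.4 CPM in unstimulated ACAT1 KO cells, and 198.9, 188.0 and 176.6 against 144.1, 139.6 and 133.4 CPM after LPS, without overlap in either state. How many of all genes separate in this way was not counted. LPS raised 13 of 26 partners and lowered 3 in WT cells, where 57.4% of all genes were called in either direction. In ACAT1 KO cells it raised 14 and lowered 4, where 60.7% of all genes were called. Upper-quartile scaling moved the partner counts to 12 and 8 and to 12 and 7.

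The double-stranded RNA sensors bind the kind of RNA that ADAR1 edits. In unstimulated ACAT1 KO cells 5 of 13 were lower and none was higher, where 1.91% of all genes were called in either direction. The median of the 13 was -0.68, and Oas3 (-1.22, adjusted p = 0.0265, edgeR), Oas2 (-1.19, adjusted p = 0.0286), Dhx58 (-0.68, adjusted p = 0.0311) and Ddx58 (-0.83, adjusted p = 0.0390) had the smallest p. The fifth was Oas1a (-0.63, adjusted p = 0.0441, edgeR), named here after its value was seen. Without the 3 libraries with more antisense counts 3 were lower and the median was -0.77. Oas3 and Oas2 are oligoadenylate synthetases, and Ddx58 and Dhx58 are RIG-I and its relative LGP2. After LPS the median was 0.0057, with Ifih1, the sensor MDA5, higher (0.75, adjusted p = 0.0240) and Oas1b and Oas2 lower (-0.45, adjusted p = 0.0351, and -0.43, adjusted p = 0.0419, edgeR), where 15.1% of all genes were called. Reads of the Oas1 genes may be split among near-identical copies, so their values are uncertain. LPS raised 12 of these 13 genes and lowered 1 in each genotype, where 57.4% of all genes in WT and 60.7% in ACAT1 KO cells were called. The responses of the 13 genes differed between genotypes by a median of 0.72, with 0 called by edgeR without the line block (9 at an unadjusted p under 0.05, and 6 called by DESeq2) and 10 called, all positive, with it. Of all genes, edgeR called 0.187% without the block, where 8.92% had an unadjusted p under 0.05, and 1.74% with it.

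The study had reported the type I interferon pathway as lowered by Acat1 deletion in these unstimulated libraries, so its list is no independent test. Its 19 genes had a median genotype difference of -0.86 without treatment. Of them 0 were higher and 3 lower (Usp18, which the STING list also holds, Stat2 at -1.15, adjusted p = 0.0344, and Mx2 at -1.33, adjusted p = 0.0465, edgeR), where 1.91% of all genes were called. After LPS the median was -0.0037, with the receptor subunit Ifnar1 alone called (-0.28, adjusted p = 0.0197, edgeR), where 15.1% of all genes were. The responses of the 19 genes to LPS differed between genotypes by a median of 0.73, with 0 of 19 called by edgeR without the line block (13 at an unadjusted p under 0.05, and 9 called by DESeq2) and 12 called, all positive, with it. The shares of all genes were again 0.187% called without the block, 8.92% at an unadjusted p under 0.05, and 1.74% called with it. Adar, Cgas, Zbp1 and Samhd1 stand beside these lists as 4 genes that LPS raised in both genotypes, and among them Adar alone was called between genotypes without treatment.

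Of the other RNA and DNA editing enzymes, 0 of 12 were called between genotypes without treatment (edgeR, median -0.044, with 1 at an unadjusted p under 0.05 and 1 called by DESeq2), where 1.91% of all genes were. After LPS 2 of 11 were called, near the 15.1% of all genes. Both were lower: the tRNA deaminase subunit Adat2 (-0.30, adjusted p = 0.0433, edgeR) and Adarb1, which encodes ADAR2 (-0.67, adjusted p = 0.0483). With upper-quartile scaling these 2 calls were lost. LPS raised 9 of 11 in WT and 8 of 11 in ACAT1 KO cells, where 57.4% and 60.7% of all genes were called in either direction. It lowered the cytidine deaminase Apobec1 in both (-0.80, adjusted p = 3.17e-06, and -0.81, adjusted p = 2.52e-06, edgeR). With upper-quartile scaling 7 of the 11 were higher in each genotype. Of the other nucleases, 3 of 19 were higher in ACAT1 KO cells after LPS and 2 lower, beside the same 15.1% of all genes, among them the lysosomal nuclease Dnase2a (0.33, adjusted p = 0.00703) and Dna2 (-0.41, adjusted p = 0.0246, edgeR). LPS raised 6 of 18 nucleases and lowered 7 in each genotype, beside the same 57.4% and 60.7% of all genes. With upper-quartile scaling it raised 3 and lowered 9 in WT and raised 5 and lowered 9 in ACAT1 KO cells.

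**Figure D4:**
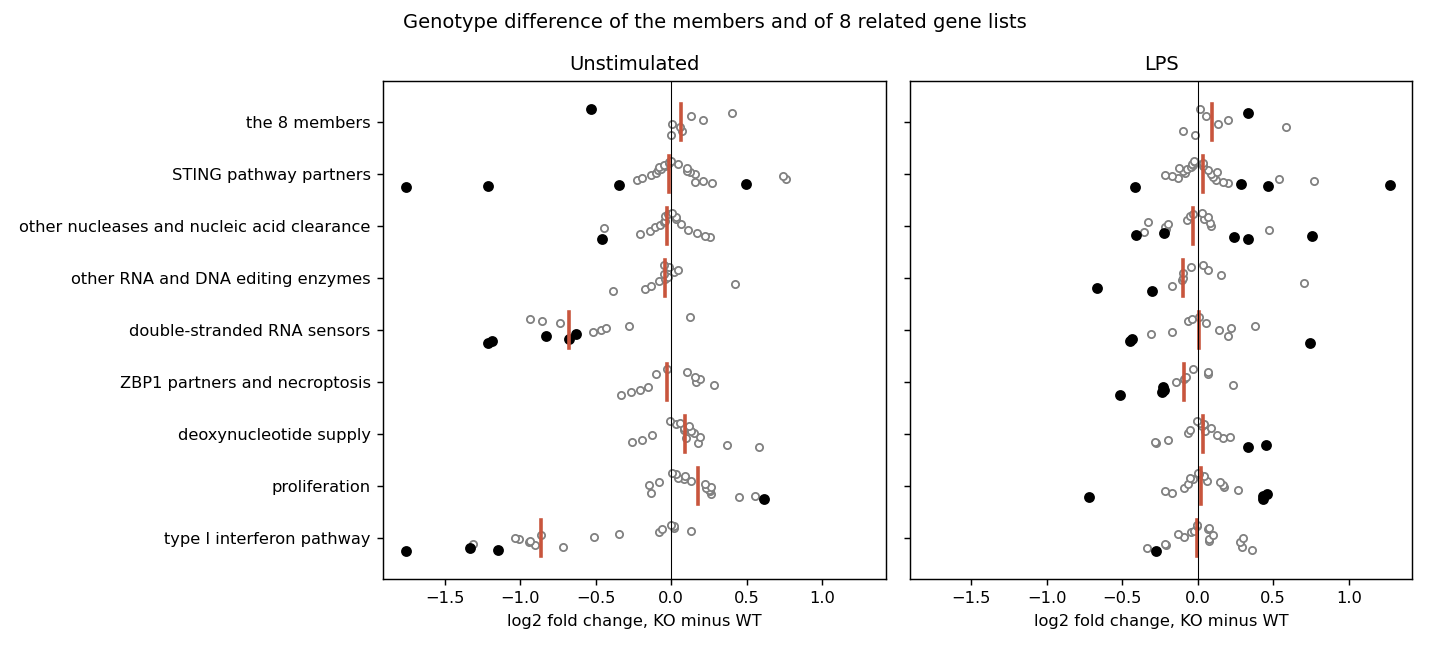
Log2 fold change of ACAT1 KO against WT cells for the 8 genes and for the genes of 8 related lists, without treatment (left) and after LPS (right), with 1 point for each gene, filled where the adjusted p was under 0.05, and a red bar at the median. The medians of the double-stranded RNA sensors (-0.68) and the type I interferon pathway (-0.86) lie to the left of 0 without treatment and near 0 after LPS.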

How the data were processed

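RNA was sequenced from 12 cultures of J774A.1 lines, 3 for each of 4 groups. According to the study's methods the libraries were made from total RNA with a directional kit, and reads were trimmed with Trimmomatic 0.33, aligned to GRCm38 with HISAT2 and quantified with StringTie. The deposited values are raw counts per gene, which the authors gave in 1 table for unstimulated and 1 for LPS libraries; how reads were assigned to genes, and the strand setting, are not given in the sources used here. The tables list 17544 and 17874 genes after removal of 59 and 57 repeated entries, and 12 columns of log2 values per sample and the columns of the authors' own comparisons (fold changes and p-values) were not used.

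Genes were filtered with filterByExpr, scaled by TMM and tested with the quasi-likelihood test of edgeR 4.0.16 in R 4.3.3, two-sided, with p-values adjusted over all genes tested and a threshold of 0.05. Genotypes were compared within each table. The LPS response and its difference between genotypes were fitted on all 12 libraries with a mean for each group. The test was also tried on simulated counts, drawn with means and spread taken from these data. Alternatives were DESeq2 1.42.0, limma-voom (limma 3.58.1), other scalings and filters, other sets of libraries, replicate blocks and leaving out each library. The alternative without the 3 libraries with more antisense counts was chosen after the data were seen. Library totals of 56948593 to 167280149 counts leave the spread between lines and their libraries, not counting, as the main limit on precision. Replicates differed by more than counting noise (chi-square per degree of freedom 31.3 to 266.5 between libraries of a group), so none was counted as a repeat of another.

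Deviations from group means of the unstimulated and the LPS library with the same number correlated in all 6 pairs (Pearson's r 0.14 to 0.45 over 11961 genes, against -0.34 to 0.098 in the 12 other pairs), so the number was taken to mark a line; this is read from the data, not from the labels. The 9 genes and the related lists were chosen with earlier results of these data known. The text names every member, up to 4 called genes of each list with the smallest p, and the 3 genes most correlated with each member called between genotypes. Gene positions and exon lengths are from GENCODE vM21 on GRCm38, to which 17521 and 17849 listed genes were matched, and promoter sequence is from RefSeq.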

Additional observations from a re-analysis of the deposited data

Results flagged for a closer look

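Adar was set apart because its LPS response differed between the genotypes in the fit with the line as a block, by 0.53 on the log2 scale (edgeR's quasi-likelihood test, adjusted p = 0.0276, standard error 0.0891), with a larger rise in all 3 ACAT1 KO lines (5.71-fold to 6.31-fold) than in any WT line (3.88-fold to 4.67-fold). Without the block the same difference was not called (adjusted p = 0.191). No other of the 8 genes met this or any other criterion, and groups of 3 libraries are too small for a check of outlying samples.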

How the results depend on the processing

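Among the log2 fold changes of the 8 genes, 544 kept their direction and side of the threshold, 8 gained and 17 lost the threshold and 39 reversed under the alternatives set out with the design. Without the 3 libraries with more antisense counts these numbers were 24, 1, 1 and 6. The cause was not tested for any of them.

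Of the 8 genes, 2 were called between genotypes without treatment by DESeq2 (1721 genes in all) and in the fit of all 12 libraries (1353 genes), and 0 without the 3 libraries with more antisense counts (66 genes) or without any 1 library (0 to 0 members, 7 to 522 genes). The term for the antisense split gave 664 genes and a minimum of 10 counts 475. After LPS 2 of the 8 were called by DESeq2 (3098 genes) and with upper-quartile scaling (2478 genes), where Rnaseh2a passed beside Rnaseh2c, and 0 to 1 with a library left out (867 to 2245 genes). For the difference in LPS response 1 was called by DESeq2 (333 genes) and 1 with the line block (288 genes). Genes called were 11 with limma-voom, 2 without the 3 libraries and 2 to 41 with a library left out. DESeq2 also called 9 double-stranded RNA sensors and 13 interferon genes lower in unstimulated ACAT1 KO cells.

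Deviations of same-numbered WT and ACAT1 KO libraries of a state correlated with r from -0.41 to 0.75, and those of other pairs from -0.86 to 0.68. Without treatment r was 0.58 to 0.75 for pairs on the same side of the antisense split and -0.86 to -0.41 for pairs across it. With the replicate number as a block the unstimulated comparison called 151 genes and 1 of the 8, and the LPS comparison 2230 genes and 0 of the 8, with Rnaseh2c at 0.33 (edgeR, adjusted p = 0.0515). The line block changed no call of the 8 genes for the LPS response.

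The following values reversed in sign. Without treatment, Cgas was 0.0047 with limma-voom, 0.0059 without a filter, 0.0079 with the block and -0.12 to 0.061 with a library left out. Samhd1 was -0.018 with upper-quartile scaling, -0.0013 with a minimum of 10 counts and -0.0066 with 12 libraries. It was -0.013 with the term for the antisense split, -0.18 without the 3 libraries and -0.072 to 0.077 with a library left out. Zbp1 was -0.097 with the term for the antisense split, -0.72 without the 3 libraries and -0.34 to 0.87 with a library left out. Sting1 was -0.079 without the 3 libraries. After LPS, Cgas was 0.011 with upper-quartile scaling and Adar -0.0091 with 12 libraries, and with a library left out Cgas ranged from -0.11 to 0.050, Samhd1 from -0.067 to 0.31 and Adar from -0.092 to 0.077. For the difference in LPS response Cgas was 0.030 and Rnaseh2a 0.037 with upper-quartile scaling, and 0.099 and 0.15 without the 3 libraries, where Rnaseh2b was 0.010. With a library left out Cgas ranged from -0.12 to 0.12, Zbp1 from -0.30 to 1.28, Samhd1 from -0.080 to 0.29 and Rnaseh2a from -0.089 to 0.053.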

Other observations

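Of 11 genes listed as ZBP1 partners or for necroptosis, edgeR called 0 between genotypes without treatment, where 1.91% of all genes were called. DESeq2 called 1, and 3 had an unadjusted p under 0.05 in edgeR, where 19.7% of all genes did. After LPS 4 of the 11 were lower in ACAT1 KO cells, where 15.1% of all genes were called in either direction. These were Casp8, the protease that restrains necroptosis (log2 fold change -0.52, adjusted p = 0.00952, edgeR), the pore-forming protein Gsdmd (-0.23, adjusted p = 0.0374), the kinase Ripk1 (-0.22, adjusted p = 0.0400) and the caspase-8 regulator Cflar (-0.23, adjusted p = 0.0449). Ripk3 and Mlkl, also on the list, were not among the 4. With upper-quartile scaling 1 of the 4 calls was left. LPS raised 6 and lowered 2 of the 11 in WT cells, and raised 6 and lowered 5 in ACAT1 KO cells, against 4 and 5 in each genotype with upper-quartile scaling. Without that scaling 57.4% and 60.7% of all genes were called for LPS in WT and ACAT1 KO cells.

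Of the enzymes that supply the deoxynucleotides that SAMHD1 breaks down, LPS lowered 11 of 16 in WT and 12 of 16 in ACAT1 KO cells and raised 2 in each, where 57.4% and 60.7% of all genes were called in either direction. The ribonucleotide reductase subunit Rrm2 had log2 fold changes of -0.82 and -1.19 (adjusted p = 2.46e-05 and 9.17e-07, edgeR), and thymidine kinase Tk1 of -1.35 and -1.49 (adjusted p = 4.15e-06 and 1.58e-06, edgeR). Between genotypes 0 were called without treatment (2 by DESeq2, 4 at an unadjusted p under 0.05), and 2 were higher in ACAT1 KO cells after LPS, Dut (0.33, adjusted p = 0.0196, edgeR) and Tk1 (0.45, adjusted p = 0.0265). Of all genes edgeR called 1.91% between genotypes without treatment and 15.1% after LPS. Of 18 proliferation genes LPS lowered 13 in WT and 14 in ACAT1 KO cells and raised 0, beside the same 57.4% and 60.7% of all genes. Between genotypes Bub1 was higher in both states (0.62, adjusted p = 0.0390, and 0.43, adjusted p = 0.0282, edgeR), and the unstimulated call was lost without the 3 libraries with more antisense counts, where the list's median was 0.021, against 0.18 with them. After LPS Pcna (0.43, adjusted p = 0.00414) and Birc5 (0.46, adjusted p = 0.0395) were higher and Ccne1 was lower (-0.72, adjusted p = 0.0142).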
